A study of Mus musculus with 9 samples.

Results

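The genes described here are the 2 corticosteroid receptors of the mouse brain, Nr3c1 and Nr3c2, and 8 genes that glucocorticoids are known to induce: Fkbp5, Sgk1, Tsc22d3, Zbtb16, Ddit4, Cdkn1a, Plin4 and Hif3a. They were chosen by symbol, through Ensembl identifiers with the version removed, and all 10 were found among the 22255 genes of the deposited table. RNA was sequenced from hippocampal synaptoneurosomes, a preparation enriched in resealed synaptic endings, of Fmr1 KO mice of the C57Bl/6J strain. All animals thus carried the loss of Fmr1, the gene silenced in fragile X syndrome. The samples came from mice given sub-chronic AM6545 (n = 4, replicates A, B, C and E) or vehicle (n = 5, replicates A to E). AM6545 blocks the cannabinoid receptor CB1 and enters the brain poorly, so that it acts mainly in the periphery. Dose, age, sex, time of day of tissue collection and any measurement of corticosterone were not given in the sources used here, and no wild-type sample was analysed. The labels do not say whether samples are separate animals, so p-values measure the spread between these samples only.

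Corticosterone, the main glucocorticoid of rodents, enters neurons and glia and binds the glucocorticoid receptor (GR, encoded by Nr3c1) and the mineralocorticoid receptor (MR, encoded by Nr3c2). The MR has the higher affinity and is largely occupied at resting hormone levels, while the GR fills when the hormone rises with stress or at the daily peak. Bound receptors move to the nucleus, part from their HSP90 chaperone complex and act on DNA elements built from inverted hexamers. The hippocampus is rich in both receptors and takes part in the feedback that limits the hormone. The response genes are used as readouts of recent hormone exposure in brain tissue, and several are also induced by other signals.

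Among these genes, the full DNA element itself can be shown in Sgk1. RefSeq promoter windows (GRCm38.p6, from 250 bases before to 50 bases after an annotated start) were found for 8 of the 10 genes, 16 windows in all, since Sgk1 has 6 annotated starts, Tsc22d3 has 3 and Cdkn1a has 2. They were searched on both strands for the full palindromic element, AGAACA and TGTTCT with 3 bases of any kind between them, and for a single hexamer, AGAACA or TGTTCT, which also lies within the full element. The full element was in 3 of 32851 windows of all genes (0.0091%), and 1 of these 3 belongs to Sgk1. It begins 189 bases before that start and reads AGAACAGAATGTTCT. A single hexamer was in 4 of the 16 windows, against 19.0% of all windows (6233 of 32851). These 4 were 3 windows of Sgk1 and 1 of Tsc22d3. Windows of Sgk1, Tsc22d3 and Fkbp5 are printed 5′ to 3′ on the strand of the gene to show the element, a single hexamer and a window that holds neither, with matches in capitals.
Sgk1, chr10:21993640-21993939, plus strand: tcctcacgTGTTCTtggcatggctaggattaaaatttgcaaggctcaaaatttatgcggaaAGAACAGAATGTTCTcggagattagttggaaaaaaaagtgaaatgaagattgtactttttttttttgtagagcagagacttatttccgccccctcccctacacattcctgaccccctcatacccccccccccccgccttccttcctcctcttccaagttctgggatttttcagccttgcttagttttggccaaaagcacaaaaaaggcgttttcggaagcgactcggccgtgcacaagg
Tsc22d3, chrX:140600473-140600772, minus strand: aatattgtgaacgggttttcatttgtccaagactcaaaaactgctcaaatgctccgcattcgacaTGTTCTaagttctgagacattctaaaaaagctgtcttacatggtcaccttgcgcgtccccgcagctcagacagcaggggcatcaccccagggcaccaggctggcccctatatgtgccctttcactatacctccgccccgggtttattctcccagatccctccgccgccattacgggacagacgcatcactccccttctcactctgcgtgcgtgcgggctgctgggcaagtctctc
Fkbp5, chr17:28486100-28486399, minus strand: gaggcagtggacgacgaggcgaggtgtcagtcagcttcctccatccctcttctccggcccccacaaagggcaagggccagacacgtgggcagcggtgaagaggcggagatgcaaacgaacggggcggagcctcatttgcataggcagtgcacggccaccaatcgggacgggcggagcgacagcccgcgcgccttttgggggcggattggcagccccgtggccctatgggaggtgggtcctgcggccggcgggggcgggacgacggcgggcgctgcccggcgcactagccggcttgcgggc
A match is a description of the letters, and glucocorticoid receptors also act through elements outside such windows.

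Total counts ran from 17628922 to 27263393 per sample. Fmr1, the targeted gene, still gave 9.45 to 13.3 CPM (counts scaled to a common library size with TMM factors) in every sample. Neuron markers, 12 of 12 detected in all samples, summed to between 9288 and 10253 CPM in AM6545 samples and between 8492 and 11242 CPM in vehicle samples. Glial and vascular markers were detected as well: oligodendrocyte markers summed to between 11143 and 23081 CPM, astrocyte markers to between 4287 and 6572 CPM and endothelial markers to between 56.0 and 117 CPM. In bulk samples fewer cells of a type and less RNA per cell cannot be told apart. Among the 9 libraries, 2 stood apart. Vehicle C had the lowest summed level of oligodendrocyte, astrocyte, microglia, endothelial and choroid plexus markers and the highest of neuron markers. By mean log2 CPM of neuron markers, AM6545 A was highest at 9.062 and vehicle C next at 9.055. Choroid plexus markers, a sign of tissue next to the hippocampus, summed to between 72.8 and 1020 CPM in AM6545 and between 60.4 and 4614 CPM in vehicle samples, with 10 of 10 lower in AM6545 samples and a median log2 fold change of -1.49; their part in the results was not tested. Vehicle A had the highest oligodendrocyte and the lowest neuron sum. The 8 anterior pituitary markers summed to 56.1 CPM in vehicle A, of which Gh alone gave 51.8 CPM. In the other 8 samples the sum ranged from 0.275 to 1.45 CPM. Pitx1, 1 of the 8 markers, had no counts in any sample. Values without a library are given where they moved by over 1.5 times.

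None of the 10 genes differed between AM6545 and vehicle past an adjusted p of 0.05 by edgeR's quasi-likelihood test. All 10 passed the filter on low counts. The background is the same: 0 of 14512 genes tested passed (0%), with a smallest adjusted p of 0.653. DESeq2 and limma-voom also called 0. At an unadjusted p under 0.05, edgeR gave 1047 genes, DESeq2 1121 and limma-voom 870. By edgeR that was 1 of the 10, Fkbp5, beside 7.21% of all genes tested. The CPM ranges of the groups overlapped for all 10, while they did not for 1.45% of all genes tested. Over all 14512 genes tested, 6996 had higher and 7516 lower fitted levels in AM6545 samples. Of the 10, 5 had higher and 5 lower fitted levels in AM6545 samples, with a median log2 fold change of 0.00 beside -0.01 over all genes tested. The direction of each gene was the same under every alternative that gave a value, and no adjusted p of theirs fell under 0.324.

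**Figure D1:**
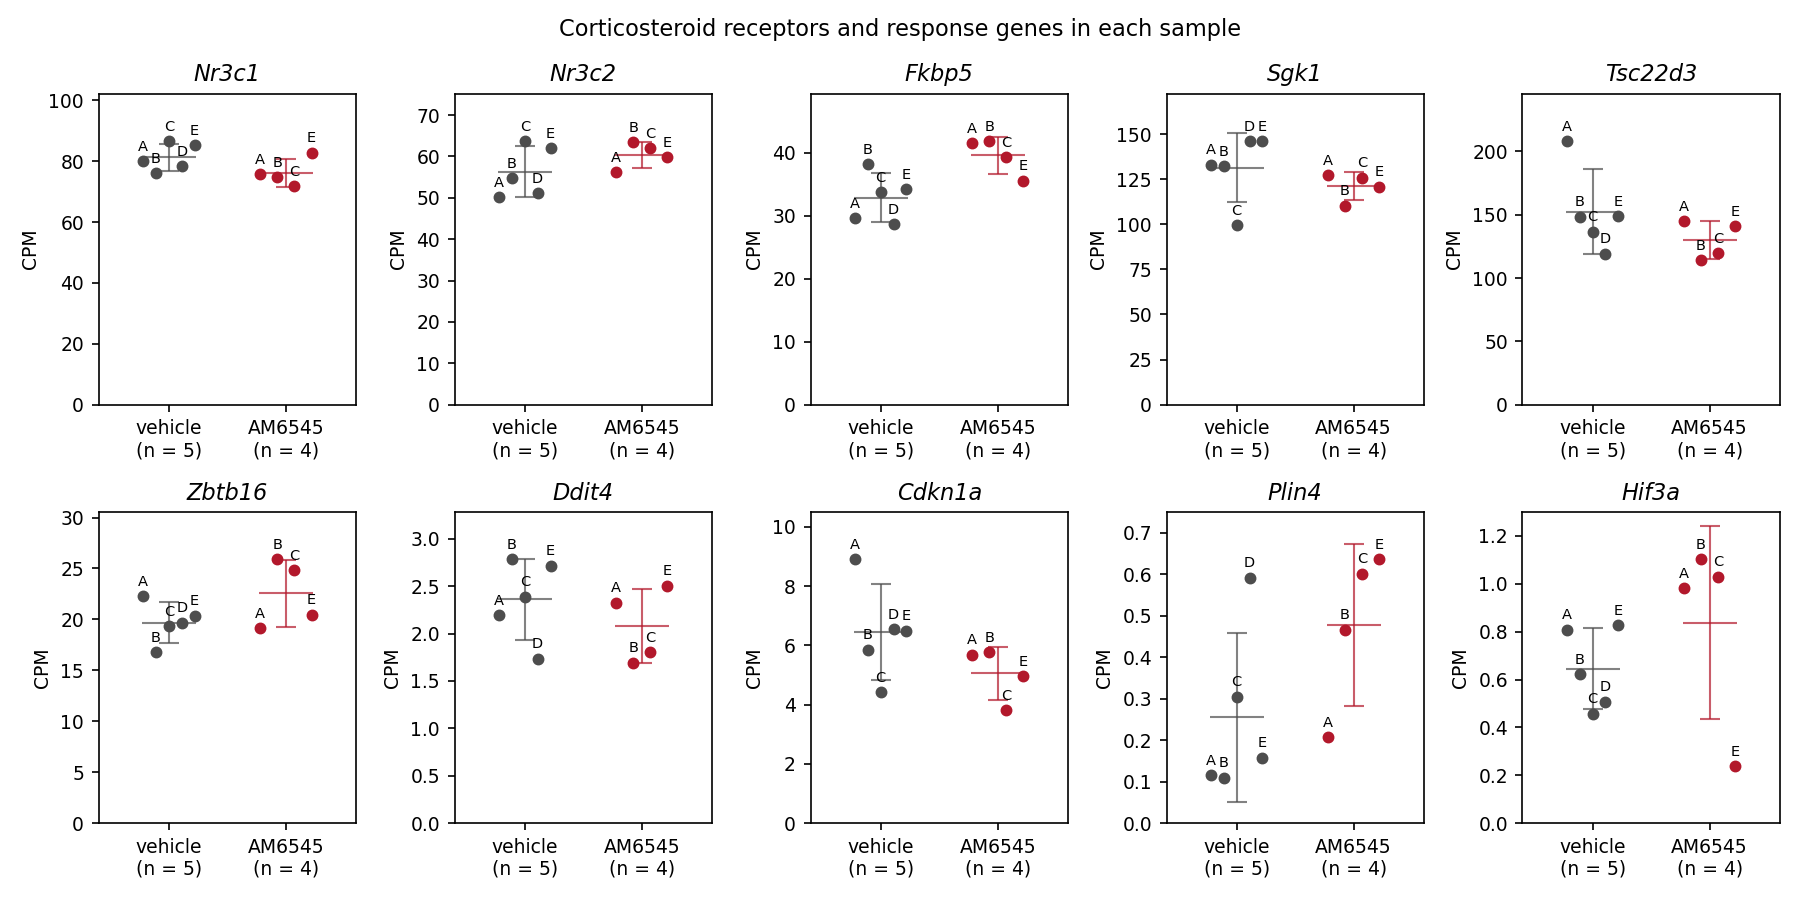
CPM of the 2 receptors and 8 response genes in each sample (points, with the replicate letter), with group means and SD (bars), from 0 on each vertical axis; vehicle n = 5, AM6545 n = 4. The groups overlap for every gene, and Fkbp5 has 3 of 4 AM6545 samples above the highest vehicle sample.

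Of the receptors, Nr3c1 (ENSMUSG00000024431.16) was at 75.6, 74.6, 71.7 and 82.7 CPM in AM6545 A, B, C and E and at 79.9, 76.0, 86.6, 78.3 and 85.2 CPM in vehicle A to E. AM6545 A, B and C lay below all vehicle samples and AM6545 E within them. The means were 76.2 ± 4.66 CPM (SD, n = 4) and 81.2 ± 4.56 CPM (SD, n = 5), which gave a log2 change of -0.09 (SE 0.09, adjusted p = 0.760 by edgeR's quasi-likelihood test). Its 95% interval, unadjusted for the number of genes, ran from 0.826-fold to 1.07-fold. Nr3c1 was the steadiest of the 10 genes over all samples, with a 1.21-fold range.

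Nr3c2 (ENSMUSG00000031618.14) was at 56.2, 63.4, 62.0 and 59.8 CPM in AM6545 A, B, C and E. Vehicle A to E had 50.2, 54.7, 63.7, 51.1 and 62.0 CPM. The AM6545 samples thus fell inside the vehicle range, in which vehicle A, B and D were the low samples. The log2 fold change was 0.10 (SE 0.10, adjusted p = 0.773 by edgeR's quasi-likelihood test), with an interval from 0.926-fold to 1.24-fold. It was 0.06 without vehicle A and 0.07 without vehicle D, and 0.15 without vehicle C. In M21 an exon of a noncoding gene on the opposite strand, Gm10649, overlaps an exon of Nr3c2, by 155 bases at the longest. Without a stated strand setting, reads from the overlapping stretch cannot be told apart.

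The balance of the receptors within a library does not depend on scaling. The ratio of Nr3c2 to Nr3c1 CPM was 0.743, 0.849, 0.865 and 0.723 in AM6545 A, B, C and E, and 0.628, 0.720, 0.736, 0.652 and 0.727 in vehicle A to E. AM6545 A, B and C lay above all vehicle samples and AM6545 E between vehicle B and vehicle E. The group means, 0.795 ± 0.0723 (SD, n = 4) and 0.693 ± 0.0489 (SD, n = 5), differed by 0.102. Leaving out 1 sample at a time gave differences from 0.0789 to 0.126. The ratio is of counts, not of molecules, since the transcripts differ in length. It is given without a test. Nr3c2 itself tended to be lower where oligodendrocyte and astrocyte markers were higher, but neither relation passed after adjustment. Over 9 samples its r was -0.74 with oligodendrocyte markers (exact permutation p = 0.0129, adjusted p = 0.340; rho = -0.70, exact permutation p = 0.0433) and -0.48 without vehicle A and vehicle C. With astrocyte markers its r was -0.65 (exact permutation p = 0.0459, adjusted p = 0.340; rho = -0.83, exact permutation p = 0.00827) and -0.57 without vehicle B and vehicle C. With total counts in place of TMM scaling, r with oligodendrocyte markers was -0.66 (exact permutation p = 0.0451). Under the same scaling r with astrocyte markers was -0.55 (exact permutation p = 0.111). The part of these markers in the ratio was not tested.

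Per kilobase of the median protein-coding transcript in GENCODE M21, the genes fell in a wide order. Tsc22d3 was at 91.7 ± 18.1 CPM per kilobase (SD, n = 9), Sgk1 at 51.6 ± 6.22 and Nr3c1 at 41.8 ± 2.67. Below these came Nr3c2 at 17.2 ± 1.55, Fkbp5 at 10.3 ± 1.38, Zbtb16 at 5.50 ± 0.758 and Cdkn1a at 3.78 ± 0.9499 (SD, n = 9 each). Ddit4 was at 1.27 ± 0.235, Hif3a at 0.548 ± 0.219 and Plin4 at 0.0616 ± 0.0383 CPM per kilobase (SD, n = 9 each). The ranges of neighbours overlapped for Sgk1 with Nr3c1 and for Zbtb16 with Cdkn1a; the other neighbours did not overlap. With the longest transcript in place of the median, chosen after seeing the data, the order was the same, but Nr3c1, Nr3c2 and Fkbp5 drew together at 12.3, 9.82 and 9.29 CPM per kilobase.

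Fkbp5 (ENSMUSG00000024222.18) encodes FKBP51, a co-chaperone that binds the HSP90 complex of the GR and lowers its affinity for hormone. It is itself induced by the GR and so closes a short feedback loop. It was at 41.5, 41.9, 39.3 and 35.6 CPM in AM6545 A, B, C and E and at 29.6, 38.1, 33.7, 28.6 and 34.2 CPM in vehicle A to E. AM6545 A, B and C lay above all vehicle samples, and AM6545 E lay below vehicle B only. The means were 39.6 ± 2.90 CPM (SD, n = 4) and 32.8 ± 3.84 CPM (SD, n = 5), with 4 of 4 AM6545 samples above the vehicle mean. The log2 fold change was 0.27 (SE 0.10), a fold of 1.20 with an interval from 1.03 to 1.40. The edgeR quasi-likelihood p was 0.0226 before adjustment and 0.653 after it over all genes, so the difference did not pass. A two-sided exact permutation test of the CPM gave p = 0.0317, where 0.0159 is the smallest p the design allows. For the other receptors and response genes the same test gave p from 0.143 (Cdkn1a) to 0.365 (Hif3a). These permutation p-values were not adjusted for the number of genes. The log2 value of Fkbp5 was 0.22 without vehicle D and 0.33 without vehicle B, the extremes over samples left out. No adjusted p of Fkbp5 over the alternatives, edgeR or other, was under 0.324.

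Neuron markers tended to be higher where Fkbp5 was higher over the 9 samples of both groups, but this did not pass after adjustment. Their mean log2 CPM had r = 0.71 with that of Fkbp5 over 9 samples (exact permutation p = 0.0399, adjusted p = 0.340 over 49 relations; rho = 0.57, exact permutation p = 0.121), and r was 0.69 without AM6545 E and vehicle A. Of the 12 neuron markers, 9 were higher and 3 lower in AM6545 samples, with a median log2 fold change of 0.12 and 0 past the threshold. Their part in the Fkbp5 values was not tested.

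**Figure D2:**
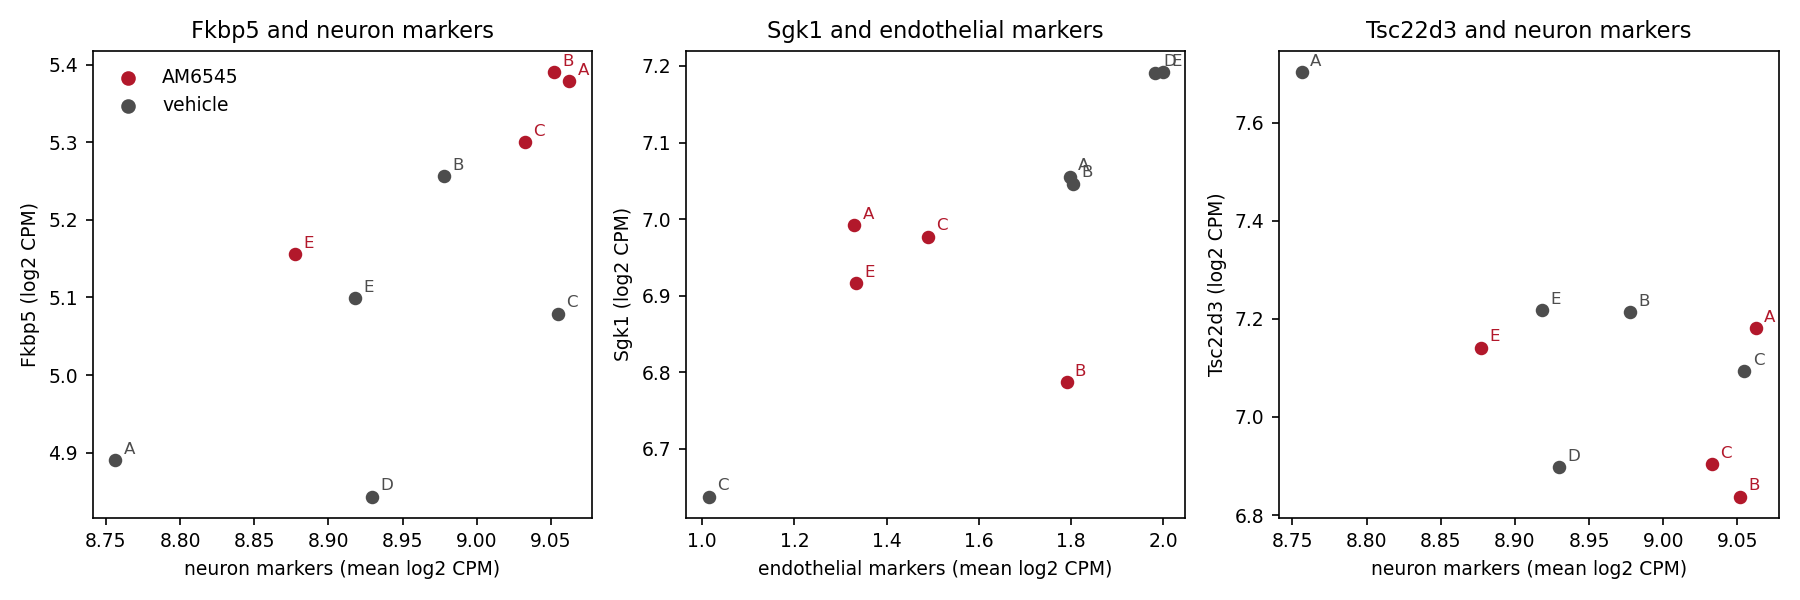
Level of Fkbp5, Sgk1 and Tsc22d3 (log2 CPM, vertical axes) against the mean log2 CPM of neuron or endothelial markers (horizontal axes) in 9 samples, each a point with its replicate letter; red AM6545, grey vehicle; axes do not start at 0. Vehicle A and vehicle D are lowest for Fkbp5, vehicle C is lowest for both Sgk1 and endothelial markers, and vehicle A is highest for Tsc22d3 and lowest for neuron markers.

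Sgk1 (ENSMUSG00000019970.16), a serum- and glucocorticoid-regulated kinase that acts on ion channels and transporters, went the other way in its mean. It was at 127, 110.4, 125.9 and 121 CPM in AM6545 A, B, C and E, and at 133, 132, 99.5, 146 and 146 CPM in vehicle A to E. All 4 AM6545 samples lay inside the vehicle range, whose low end is vehicle C alone. Sgk1 had a log2 fold change of -0.12 (SE 0.11, adjusted p = 0.766 by edgeR's quasi-likelihood test), with an interval from 0.778-fold to 1.09-fold. Without vehicle C it was -0.20, and without AM6545 B, vehicle D or vehicle E it was -0.08.

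Sgk1 is also expressed outside neurons. Its level tended to be higher where endothelial and oligodendrocyte markers were higher, but neither relation passed after adjustment. Over 9 samples r was 0.76 with endothelial markers (exact permutation p = 0.0231, adjusted p = 0.340; rho = 0.83, exact permutation p = 0.00827, adjusted p = 0.203), and 0.61 without AM6545 A and vehicle C. With oligodendrocyte markers r was 0.76 (exact permutation p = 0.0215, adjusted p = 0.340; rho = 0.62, exact permutation p = 0.0857), and 0.75 without vehicle A and vehicle C. Endothelial markers summed to between 68.6 and 86.6 CPM in AM6545 samples and between 56.0 and 117 CPM in vehicle samples. Of the 11 markers, 10 passed the filter, 8 of them lower and 2 higher in AM6545 samples, and none was at 0 in any sample. At an unadjusted edgeR p under 0.05, 3 of these 10 markers were lower and 0 higher, beside 7.21% of all genes tested. The group ranges did not overlap for 1 marker, beside 1.45% of all genes tested, and 0 markers passed the threshold. Their part in the Sgk1 values was not tested.

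Tsc22d3 (ENSMUSG00000031431.14) encodes GILZ, a leucine zipper protein through which glucocorticoids restrain inflammatory transcription. It was at 145, 114, 119.7 and 141 CPM in AM6545 A, B, C and E and at 208, 148, 136, 119 and 149 CPM in vehicle A to E. Vehicle A was far above the other 8 samples, which lay between 114 and 149 CPM. The log2 fold change was -0.23 (SE 0.14, adjusted p = 0.674 by edgeR's quasi-likelihood test) and -0.09 without vehicle A. Cdkn1a (ENSMUSG00000023067.15), an inhibitor of cyclin-dependent kinases induced by p53 as well as by glucocorticoids, had the same library on top. It was at 5.69, 5.76, 3.82 and 4.97 CPM in AM6545 A, B, C and E and at 8.90, 5.86, 4.42, 6.55 and 6.49 CPM in vehicle A to E. All 4 AM6545 samples lay below the vehicle mean of 6.44 ± 1.62 CPM (SD, n = 5). An exon of AC167363.2 overlaps Cdkn1a on the opposite strand, by 261 bases at the longest. Reads from the overlapping stretch cannot be told apart. The log2 fold change of Cdkn1a was -0.35 (SE 0.19, adjusted p = 0.654 by edgeR's quasi-likelihood test) and -0.21 without vehicle A. Without vehicle C it was -0.45 (adjusted p = 0.682 by edgeR). Vehicle A is the library with the high pituitary marker sum, most of it Gh, and the lowest neuron sum. With neuron markers r was -0.72 for Tsc22d3 (exact permutation p = 0.0530, adjusted p = 0.340; rho = -0.47, exact permutation p = 0.213) and -0.70 for Cdkn1a (exact permutation p = 0.0402, adjusted p = 0.340; rho = -0.57, exact permutation p = 0.121). Without AM6545 E and vehicle A these were -0.20 and -0.62, so the relation of Tsc22d3 rests on those samples. The part of other cell types in both genes was not tested.

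Zbtb16 (ENSMUSG00000066687.6) encodes the zinc finger transcription factor PLZF. It was at 19.1, 25.9, 24.8 and 20.5 CPM in AM6545 A, B, C and E and at 22.3, 16.8, 19.3, 19.7 and 20.3 CPM in vehicle A to E. AM6545 B and C lay above all vehicle samples, while AM6545 A lay below all vehicle samples but vehicle B. AM6545 against vehicle gave a log2 fold change of 0.20 (SE 0.12, adjusted p = 0.662 by edgeR's quasi-likelihood test), and 0.13 without AM6545 B. Ddit4 (ENSMUSG00000020108.5) encodes REDD1, an inhibitor of the mTOR complex that rises with stress and low oxygen. It was at 2.33, 1.69, 1.80 and 2.50 CPM in AM6545 A, B, C and E and at 2.20, 2.78, 2.39, 1.73 and 2.72 CPM in vehicle A to E, on 38 to 76 counts. Low and high samples of Ddit4 occurred in both groups, and its log2 fold change was -0.19 (SE 0.21, adjusted p = 0.807 by edgeR's quasi-likelihood test). It was -0.10 without AM6545 B, -0.12 without AM6545 C or vehicle B, -0.28 without vehicle D and -0.29 without AM6545 E or with the replicate letter as a block.

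The other 2 genes were near the limit of detection. Plin4 (ENSMUSG00000002831.15), a lipid droplet coat protein, had 4, 11, 14 and 16 counts in AM6545 A, B, C and E and 2, 3, 6, 14 and 4 counts in vehicle A to E. AM6545 B, C and E and vehicle D were high, and AM6545 A lay among the low vehicle samples. An exon of Hdgfl2 on the opposite strand overlaps Plin4 by 17 bases. The fitted log2 fold change of Plin4 was 0.91 (SE 0.51, adjusted p = 0.660 by edgeR's quasi-likelihood test), with an interval from 0.876-fold to 4.004-fold. With the replicate letter as a block it was 1.501 (adjusted p = 0.825 by edgeR), and without vehicle D it fell under the count filter. Hif3a (ENSMUSG00000004328.16), a hypoxia-inducible factor subunit, was at 0.982, 1.10, 1.03 and 0.238 CPM in AM6545 A, B, C and E and at 0.809, 0.622, 0.457, 0.507 and 0.826 CPM in vehicle A to E. AM6545 A, B and C lay above all vehicle samples and AM6545 E below all of them, at 6 counts. The log2 fold change of Hif3a was 0.37 (SE 0.39, adjusted p = 0.792 by edgeR's quasi-likelihood test) and 0.69 without AM6545 E. It was 0.20 without AM6545 B, 0.21 with the replicate block and 0.17 with limma-voom. For both, a difference smaller than the interval could not be seen at this depth.

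**Figure D3:**
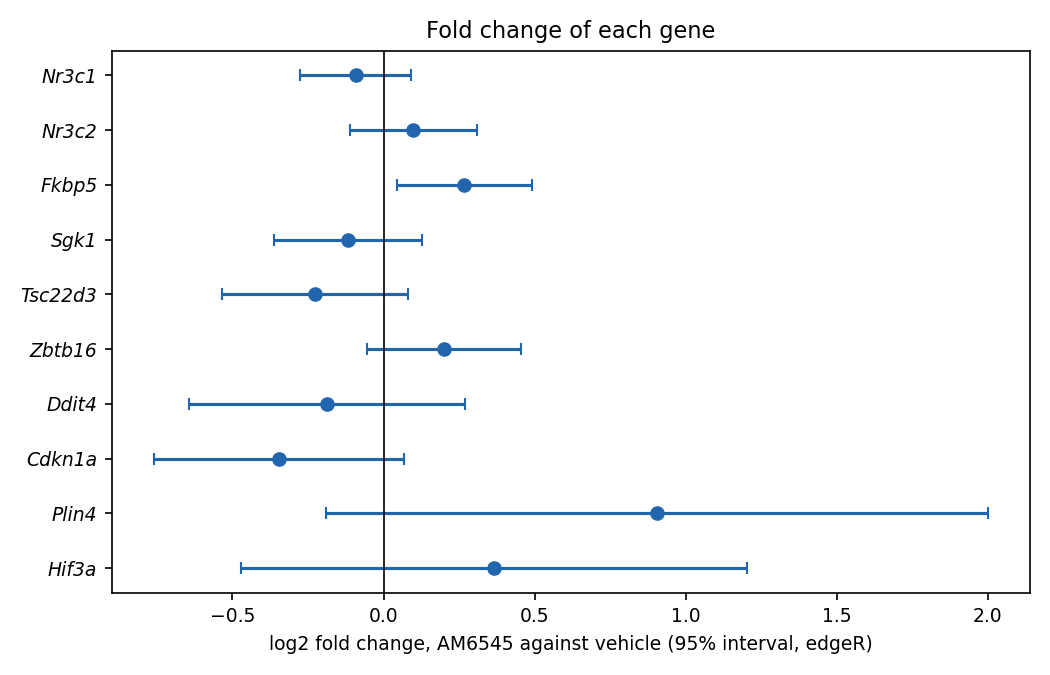
Log2 fold change of AM6545 against vehicle for the 2 receptors and 8 response genes (points) with 95% intervals from the edgeR fit, unadjusted for the number of genes (bars). The interval of Fkbp5, from 0.04 to 0.49, is the only one that leaves out 0, and those of Plin4 and Hif3a are the widest.

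Whether samples differ in hormone state was read from the order of samples over the response genes. Such an order cannot settle hormone state here, since the RNA is of synaptoneurosomes, not whole tissue, and no corticosterone value was available. Glial and vascular marker sums also varied between samples. The 9 samples did not keep 1 order over the response genes. Against Fkbp5, r over 9 samples was 0.42 for Hif3a, 0.20 for Zbtb16, 0.07 for Plin4 and 0.01 for Ddit4, and it was -0.38 for Sgk1, -0.40 for Tsc22d3 and -0.52 for Cdkn1a. Exact permutation p-values of these 7 r values ran from 0.152 to 0.980 and all adjusted p exceeded 0.05. By rank, rho ran from -0.50 for Cdkn1a (exact permutation p = 0.178) to 0.67 for Hif3a (exact permutation p = 0.0589), and none passed after adjustment. For the receptors r with Fkbp5 was -0.52 for Nr3c1 (rho = -0.68) and 0.58 for Nr3c2 (rho = 0.43), and neither passed. With total counts in place of TMM scaling, r was -0.18 for Nr3c1 (exact permutation p = 0.643) and 0.64 for Nr3c2 (exact permutation p = 0.0784). Without vehicle A and vehicle D, the 2 samples farthest from the median of Fkbp5, r became -0.90 for Nr3c1 and -0.31 for Nr3c2. For the response genes it became 0.65 for Hif3a, 0.38 for Zbtb16, 0.13 for Plin4, 0.07 for Cdkn1a and 0.02 for Sgk1. It became -0.49 for Tsc22d3 and -0.62 for Ddit4. The negative r of Sgk1 and Cdkn1a thus rested on those 2 samples. Of the 49 relations computed, 9 with Fkbp5 and 40 with cell markers, 0 passed an adjusted p of 0.05.

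The ranks showed the same. AM6545 B was the highest of 9 samples for 3 of the 8 response genes (Fkbp5, Zbtb16 and Hif3a) and the lowest for 2 (Tsc22d3 and Ddit4). Vehicle A was the highest for Tsc22d3 and Cdkn1a and next to the lowest for Fkbp5 and Plin4. Median ranks over the 8 genes, where 9 is the highest, ran from 5.0 to 5.5 in AM6545 samples and from 3.0 to 6.5 in vehicle samples. Vehicle C, the library with the least glial RNA, had the lowest median rank and was among the 3 lowest samples for 5 of 8 genes. Over the 27 other response genes described below, the median rank of vehicle C was 5.0. The part of glial RNA in these ranks was not tested.

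**Figure D4:**
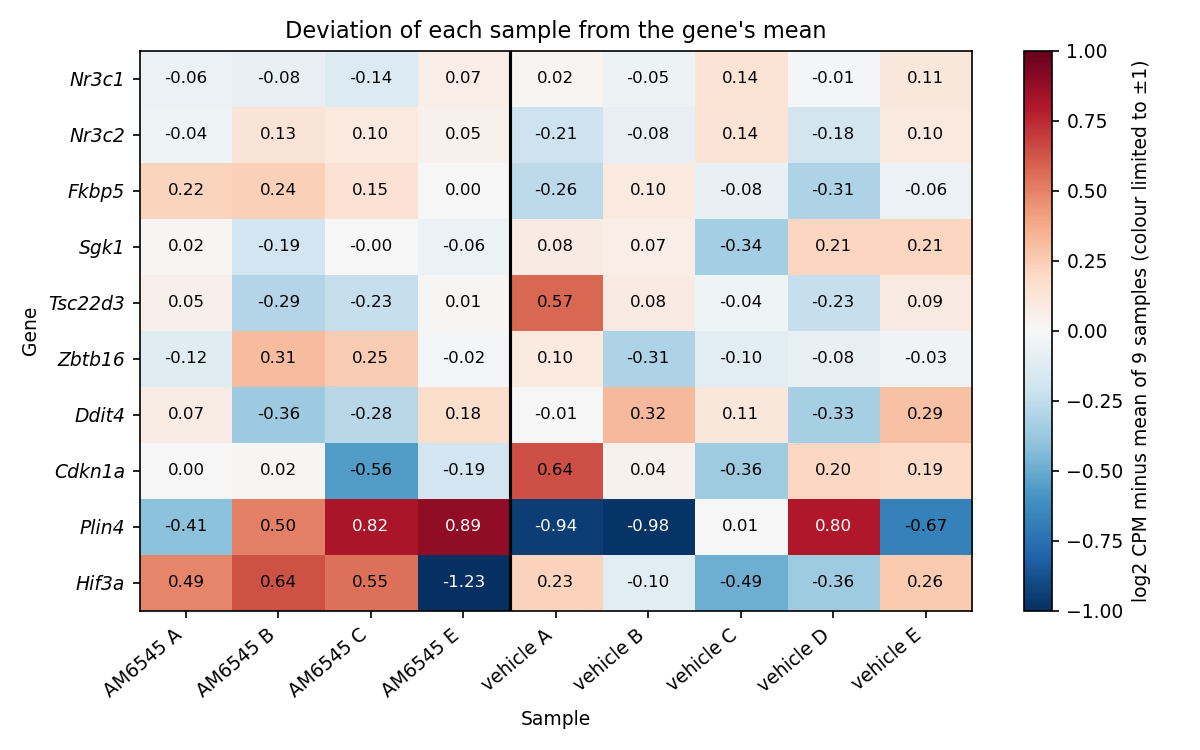
Deviation of each sample (columns, AM6545 left of the line) from the mean log2 CPM over 9 samples of each gene (rows), with values in the cells; red is above and blue below the mean. No column is red or blue throughout, and vehicle A stands out at 0.57 for Tsc22d3 and 0.64 for Cdkn1a.

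Besides these genes, 28 other glucocorticoid response genes were read as a list, of which 27 passed the filter. Of these, 9 were higher and 18 lower in AM6545 samples, with a median log2 fold change of -0.03 beside -0.01 over all genes tested, and 0 passed the threshold. At an unadjusted p under 0.05 there were 1 higher and 2 lower, or 3 of 27, beside 7.21% of all genes tested. Irs2, an adaptor of insulin signalling, was at 67.7, 82.7, 60.003 and 48.4 CPM in AM6545 A, B, C and E and between 50.01 and 52.2 CPM in vehicle samples. Its log2 fold change was 0.34 (SE 0.13, adjusted p = 0.653 by edgeR's quasi-likelihood test). Mt1, a metal-binding metallothionein, was at 167 to 181 CPM in AM6545 samples and at 386, 204, 192, 258 and 159 CPM in vehicle A to E, so that vehicle A was highest again. Its log2 fold change was -0.47 (SE 0.20, adjusted p = 0.653 by edgeR's quasi-likelihood test). AM6545 A and vehicle A, 1 of each group, had the highest median rank over the 27 genes, at 7.0, and AM6545 E the lowest, at 2.0. Vehicle A was the highest sample for 8 of the 27 genes and AM6545 E the lowest for 7.

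The proteins that fold and release the receptors were read next. All 13 chaperones and co-chaperones were tested, 8 higher and 5 lower, and 0 passed the threshold. Their median log2 fold change was 0.14, beside -0.01 over all genes tested. Fkbp4, which encodes FKBP52 and competes with FKBP51 for the receptor complex, was at 227, 261, 195 and 139 CPM in AM6545 A, B, C and E and at 149.6, 188, 162, 186 and 195 CPM in vehicle A to E. AM6545 samples thus held both the highest and the lowest value. Its log2 fold change was 0.22 (SE 0.15, adjusted p = 0.691 by edgeR's quasi-likelihood test). Ptges3, which encodes the HSP90 co-chaperone p23, was at 166 to 183 CPM in AM6545 samples and 165 to 247 CPM in vehicle samples, a log2 fold change of -0.19 (SE 0.11, adjusted p = 0.662 by edgeR's quasi-likelihood test). Hsp90ab1, the constitutive HSP90 and chosen after its values were seen, followed Fkbp4: it was highest in AM6545 B, at 3349 CPM, and lowest in AM6545 E, at 1371 CPM.

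Of 12 coregulators, which carry the receptor's signal to the transcription machinery, 10 were higher and 2 lower, and 0 passed the threshold. Their median log2 fold change was 0.12, beside -0.01 over all genes tested. The neuron markers also had a median of 0.12, and the part of cell makeup was not tested. Ncor1, a corepressor, was at 318 ± 21.4 CPM (SD, n = 4) and 324 ± 20.0 CPM (SD, n = 5), which gave a log2 change of -0.03 (SE 0.09, adjusted p = 0.948 by edgeR's quasi-likelihood test).

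Of 13 genes for glucocorticoid supply and the corticotropin-releasing hormone (CRH) system, 10 passed the filter, 4 higher and 6 lower, with a median of -0.08 and 0 past the threshold. Hsd11b2, which inactivates corticosterone, Ucn and Mc2r were under the filter, and no sample had more than 2 counts of them. Hsd11b1, which regenerates corticosterone within cells and was chosen after its values were seen, was at 58.3 ± 7.95 CPM (SD, n = 4) and 64.2 ± 14.9 CPM (SD, n = 5), which gave a log2 change of -0.14 (SE 0.16, adjusted p = 0.805 by edgeR's quasi-likelihood test). Crhbp, which binds and sequesters CRH, was at 102 ± 11.8 CPM (SD, n = 4) and 91.5 ± 7.996 CPM (SD, n = 5), which gave a log2 change of 0.16 (SE 0.10, adjusted p = 0.679 by edgeR's quasi-likelihood test). Pomc, the precursor of ACTH, reached 23.0 CPM in vehicle A, the library with the high pituitary marker sum, and 0.569 to 1.10 CPM elsewhere. Its log2 fold change of -2.74 (SE 1.03, adjusted p = 0.653 by edgeR's quasi-likelihood test) is set against a vehicle mean in which 1 library holds the high value.

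**Figure D5:**
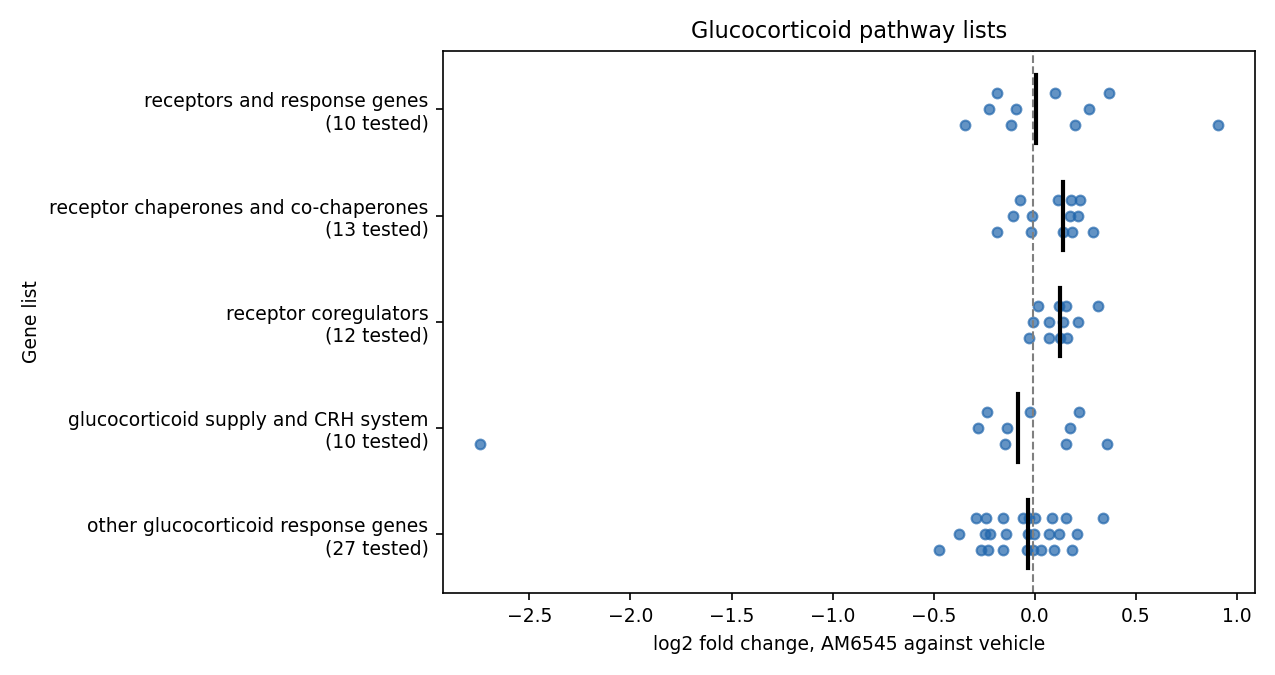
Log2 fold change of AM6545 against vehicle for the tested genes (points) of 5 glucocorticoid gene lists, with list medians (black bars) and the median of all 14512 genes tested (dashed line, at -0.01). Points spread to both sides of the dashed line in each list, and the point at -2.74 is Pomc.

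The 5 genes, of all tested, whose log2 CPM was most like that of Fkbp5 over the 9 samples were the stress-activated kinase gene Mapk14 (r = 0.98), Ncoa5, a nuclear receptor coactivator gene (r = 0.97), Mink1 (r = 0.97), Fbf1 (r = 0.97) and Zfp324 (r = 0.97). They head a ranking drawn from the 14512 genes tested, over samples that share library depth and cell makeup. They are given as a description. Mapk14 was at 82.3 to 90.3 CPM in AM6545 samples and 71.4 to 85.6 CPM in vehicle samples. None of the 27 other response genes tested was among the 5. That was likely beforehand for 27 of 14512 genes and is not read as a result. The 8 response genes could not be among the 5, since they were left out. Besides Fkbp5 itself, Hif3a had the highest r with Fkbp5 of these 8, at 0.42.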

How the data were processed

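The members and lists were chosen with earlier results of these data known. The authors deposited 1 table of estimated counts per gene for 9 samples, not scaled between samples. Per the submitters' processing notes, Salmon 1.3 and DESeq2 1.30 were used, with the builds GRCm39 and mm10; which was used where, the annotation, the strand setting and the sharing of reads between genes are not given in the sources used here. Libraries were made with a SMARTer low-input kit, per the labels' protocols.

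Symbols were found for 22155 of 22255 identifiers. Counts were rounded to whole numbers, filtered with edgeR's filterByExpr (14512 genes kept), scaled with TMM and tested over all genes in R 4.3.3 with the quasi-likelihood fit of edgeR 4.0.16 and Benjamini-Hochberg adjustment. SE is the absolute log2 fold change over the square root of F. Log2 CPM used a prior count of 2. The count test was tested on simulated data. Permutation tests were exact and two-sided. Named were all 10 genes, in each of 4 pathway lists the genes past the threshold and that with the smallest p in each direction, and the 5 genes most like Fkbp5. The result of 1 gene that this rule names is not reported here.

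Alternatives were RLE and total-count scaling, no filter, DESeq2 1.42.0, limma-voom (limma 3.58.1), the title letter as a block and each sample left out. After the data were seen, vehicle A and vehicle C were left out together. Exon overlaps and lengths came from GENCODE M21 (GRCm38), and in it 3 of the 10 genes overlap an exon on the opposite strand (Nr3c2, Cdkn1a and Plin4).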

Additional observations from a re-analysis of the deposited data

Results flagged for a closer look

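Hif3a CPM was 0.238 in AM6545 E and from 0.982 to 1.10 in AM6545 A, B and C, so that the gap took up 0.862 of the group's range. That is above the 95% critical value for 4 samples, 0.829. The value rests on 6 counts. Of 22 groups of values examined this way, 1 was past its critical value, where chance gives 1.1.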

How the results depend on the processing

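Genes past the threshold numbered 0 by each other tool, scaling and filter, with the replicate block and without vehicle A and vehicle C together, and ran from 0 to 1 over single samples left out, with 1 without AM6545 A. That gene was none of the 10 receptors and response genes. The count at an unadjusted p under 0.05, 1047, was 496 without vehicle A, 1848 without AM6545 E, 1797 without vehicle B, 690 without AM6545 C, 663 without AM6545 A, 642 without AM6545 B and 460 without vehicle A and vehicle C. All 10 fold changes kept their direction. Fkbp5 had an unadjusted p under 0.05 in 10 of 16 alternatives. Deviations of same-lettered samples from their group means correlated at -0.02, 0.04, 0.34 and -0.02 for A, B, C and E. For samples of different letters these ran from -0.28 to 0.35. So few values cannot settle whether the letters pair the samples, and the labels do not say. With the replicate block no gene of the 10 passed, and Fkbp5 was at 0.22 and Sgk1 at -0.07. Some correlations changed sign, none of which passed its threshold. With total counts, r with oligodendrocyte markers was -0.0542 for Zbtb16 and 0.0518 for Ddit4, and with neuron markers 0.0451 for Nr3c1 (-0.336 with TMM) and 0.0723 for Ddit4 (-0.208 with TMM). Over single samples left out, r with Fkbp5 ran from -0.788 to 0.0331 for Tsc22d3 (above 0 without vehicle A), from -0.103 (without AM6545 B) to 0.398 for Zbtb16, from -0.377 (without vehicle D) to 0.314 for Ddit4 and from -0.208 (without vehicle A) to 0.398 for Plin4. The sign of Ddit4 also turned without vehicle B and AM6545 A, and that of Plin4 without AM6545 B and C. The cause of these changes was not tested. Plin4 and Hif3a are limited by depth, with 2 to 16 and 6 to 26 counts per sample.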
